A study of Mus musculus with 8 samples.

Results

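The genes described here are 57 mouse genes of mitosis: the CDK1 engine, the mitotic kinases, the centromere and kinetochore, the spindle checkpoint, the spindle, cytokinesis and condensin, with 2 transcription factors of the same programme. Members were found by gene symbol among the probe sets annotated to exactly 1 gene, and Mybl2, the member with 2 of them, was represented by the brighter. On this rule 55 of the 57 were on the array, of 22180 genes with such a probe set, and Ccnb1 and Ncapg were not. The cells were C2C12, mouse myoblasts of an established line able to form myotubes, transduced as myoblasts with a retrovirus and then differentiated. The 4 groups of 2 arrays were myotubes with an shRNA against Baf60c kept for 12 h in 10 mM glucose, the same knockdown myotubes in 1 mM glucose, myotubes with a scrambled control shRNA in 10 mM glucose, and these controls in 1 mM glucose. Baf60c, gene symbol Smarcd3, is a muscle-enriched subunit of the BAF chromatin remodelling complex. Controls therefore carried a virus and an shRNA as well, and the labels name 1 construct for each arm and a single cell line. Values were RNA levels of whole cultures, in which fewer cycling cells and less RNA per cell cannot be told apart.

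Mitosis separates the copied chromosomes. The kinase CDK1, bound to cyclins A and B, drives entry; condensin compacts the chromosomes; kinetochores built on centromeric chromatin hold them to spindle microtubules. The spindle checkpoint keeps the anaphase-promoting complex (APC/C) inactive until every kinetochore is attached, after which separase cuts cohesin and the cell divides at the midzone. Most of these genes are transcribed late in the cell cycle under B-MYB (Mybl2) and FOXM1, which act with the MuvB complex. In muscle, myoblasts leave the cell cycle before they fuse, and myotubes are a post-mitotic tissue, whereas unfused myoblasts in the same dish can still divide.

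Replicate arrays correlated at r of 0.987 to 0.990 across genes, and arrays of different groups at 0.939 to 0.984. The target was read only through a probe set shared by Chpf2 and Smarcd3. It stood at log2 3.90 and 4.49 in knockdown and 6.27 and 6.09 in control myotubes at 10 mM, and at 3.01 and 2.77 in knockdown and 5.62 and 5.40 in control myotubes at 1 mM. The knockdown arrays were lower at each glucose level, with no overlap. A list of 15 muscle genes (Myod1, Ckm, Des and others) averaged log2 8.16 and 8.23 in knockdown myotubes at 10 mM, 6.87 and 6.95 in knockdown myotubes at 1 mM, 9.10 and 9.25 in controls at 10 mM, and 8.21 and 8.31 in controls at 1 mM, so muscle transcripts were present in all groups. The mean of 6 macrophage markers lay between 2.09 and 2.64 on the 8 arrays, and that of 6 adipocyte markers between 2.94 and 3.27.

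Nearly all of the 55 members were higher in 10 mM than in 1 mM glucose. In knockdown myotubes 51 of the 55 members rose and 0 fell at an adjusted p under 0.05, where 14.5% of the 13308 tested genes rose and 10.6% fell. In control myotubes 53 of 55 rose and 0 fell, where 13.2% of tested genes rose and 12.1% fell. The median change of the members was 1.98 on the log2 scale in knockdown myotubes, or 3.96-fold, and 1.97 in controls, or 3.92-fold, against medians over all tested genes of 0.03 in knockdown and -0.01 in control myotubes. A rise of at least 2-fold was called for 48 members in knockdown myotubes, against 7% of tested genes, and for 51 members in controls, against 6.06%. The same 51 members rose in both kinds of myotube, against 9.68% of tested genes, and 47 of them by at least 2-fold in both, against 4.52%. In knockdown myotubes all 55 members had both 10 mM arrays above both 1 mM arrays, against 34.8% of tested genes, and in controls 54 had, all but Mybl2, against 32.3%. When the arrays were centred on their medians, the 1936 higher and 1406 lower genes in knockdown myotubes became 1612 higher and 1826 lower over all tested genes, while 51 members were still called higher.

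**Figure D1:**
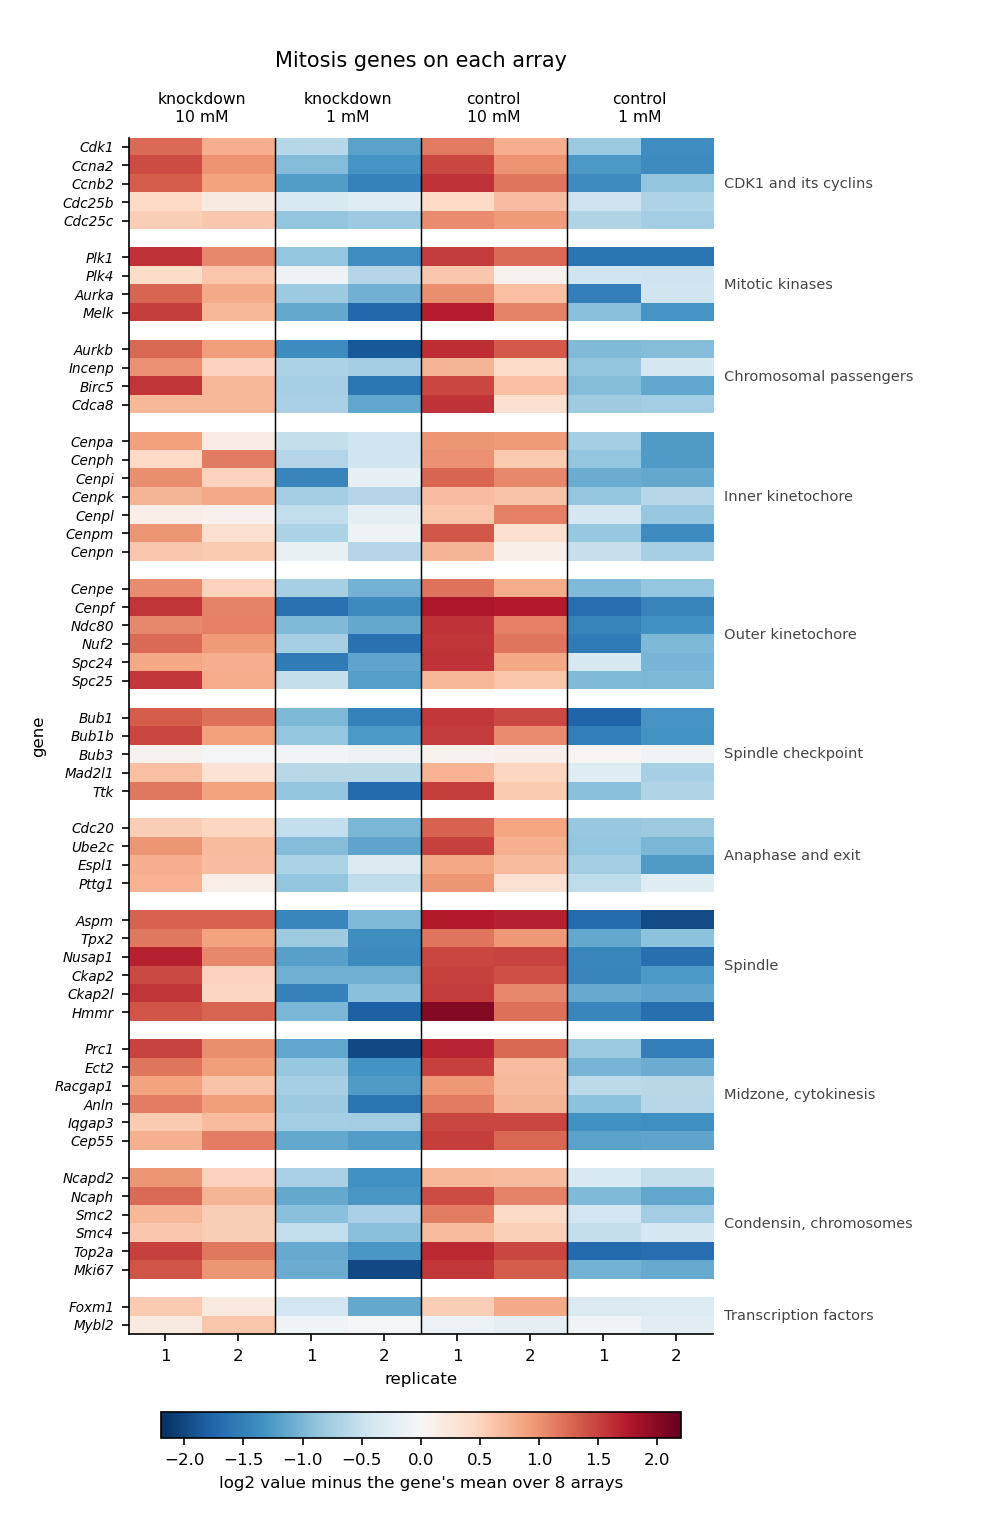
Colour shows each gene's log2 value minus its own mean over the 8 arrays, for the 55 members in rows by role and the 8 arrays in columns. The 10 mM columns are above the gene mean (red) and the 1 mM columns below it (blue) for nearly every gene in both kinds of myotube; Bub3 stays near 0 throughout, and Mybl2 stands above its mean only in knockdown myotubes at 10 mM.

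Some members were dim in 1 mM glucose. In 13 members at least 1 group averaged below log2 3. There were 11 of these in knockdown myotubes at 1 mM, 11 in controls at 1 mM, 1 in knockdown myotubes at 10 mM and 0 in controls at 10 mM. All 55 passed the filter on the mean over 8 arrays, a log2 value of 2.30, to which their 10 mM arrays contributed. At 1 mM, Birc5 (2.17 in knockdown and 2.28 in control myotubes) and Cenpk (2.21 in knockdown and 2.18 in controls) averaged below this value. Cenpl was at or below it, at 2.30 in knockdown and 2.08 in controls. Birc5 and Cenpk were thus tested only through their high 10 mM arrays. With no filter, both were still called higher in both kinds of myotube.

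Promoter sequences were read for 47 of the 55 members from the RefSeq table of build GRCm38.p6, which spans 250 bases before to 50 after the first base of each gene. Windows of 150 bases (100 before to 50 after the start) are printed 5′ to 3′ on the gene's strand for 8 members. These are not all alike in motif content, and they include Bub3, which was not called with glucose. Capitals mark TTTGAA or its reverse complement TTCAAA, the cell cycle homology region (CHR) contacted by the MuvB complex, and CCAAT or ATTGG, the box of the factor NF-Y.
Aspm (chr1:139454673-139454822, plus strand): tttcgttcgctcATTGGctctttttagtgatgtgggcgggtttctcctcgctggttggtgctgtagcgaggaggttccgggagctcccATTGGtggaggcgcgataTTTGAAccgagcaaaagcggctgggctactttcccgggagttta
Cenpf (chr1:189688037-189688186, minus strand): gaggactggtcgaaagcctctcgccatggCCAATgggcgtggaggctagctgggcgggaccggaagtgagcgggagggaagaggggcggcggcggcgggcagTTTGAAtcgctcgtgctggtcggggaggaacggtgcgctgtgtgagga
Cdk1 (chr10:69352863-69353012, minus strand): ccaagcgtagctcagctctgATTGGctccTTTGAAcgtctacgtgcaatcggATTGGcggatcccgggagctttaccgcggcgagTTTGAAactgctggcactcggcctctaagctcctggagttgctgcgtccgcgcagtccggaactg
Plk1 (chr7:122159335-122159484, plus strand): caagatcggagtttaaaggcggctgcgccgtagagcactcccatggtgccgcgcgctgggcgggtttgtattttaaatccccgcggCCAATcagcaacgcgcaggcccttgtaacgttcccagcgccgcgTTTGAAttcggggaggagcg
Cdc20 (chr4:118437294-118437443, minus strand): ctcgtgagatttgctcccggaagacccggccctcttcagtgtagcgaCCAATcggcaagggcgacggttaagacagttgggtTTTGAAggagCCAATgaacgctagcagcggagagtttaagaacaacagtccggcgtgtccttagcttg
Iqgap3 (chr3:88081951-88082100, plus strand): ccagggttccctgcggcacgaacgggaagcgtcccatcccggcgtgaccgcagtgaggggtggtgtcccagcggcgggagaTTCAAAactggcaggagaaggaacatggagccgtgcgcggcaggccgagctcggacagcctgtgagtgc
Nusap1 (chr2:119618198-119618347, plus strand): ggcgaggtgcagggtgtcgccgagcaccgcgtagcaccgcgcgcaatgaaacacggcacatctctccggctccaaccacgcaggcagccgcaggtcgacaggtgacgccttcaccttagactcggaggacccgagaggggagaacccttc
Bub3 (chr7:131560270-131560419, plus strand): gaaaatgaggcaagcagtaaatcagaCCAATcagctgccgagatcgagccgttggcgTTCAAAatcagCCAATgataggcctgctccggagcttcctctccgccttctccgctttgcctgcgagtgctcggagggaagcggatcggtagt
The windows of Aspm, Cenpf, Cdk1, Plk1 and Cdc20 hold both motifs, and these genes rose in both kinds of myotube. The window of Bub3 also holds both, and Bub3 was not called. Iqgap3 has only the homology element and Nusap1 neither motif, and both rose.

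Over the full 300 bases and both strands, TTTGAA was found in 31 of the 47 members (66.0%), in 17 of 58 other mitosis genes (29.3%) and in 18.1% of all 27025 promoters. CCAAT was found in 34 members (72.3%), in 31 of the 58 (53.4%) and in 37.9% of all promoters. Both stood in 27 members (57.4%), in 9 of the 58 (15.5%) and in 7.12% of all promoters. The 39 homology elements of the members lay near the start, at a median position of -5, with 29 within 50 bases of it. Of the 75 NF-Y boxes, 70 lay before it, at a median of -68. The sequence read holds 250 bases before the start and 50 after it, so most matches would lie before it anyway. Positions were not computed for the other promoters. There was 1 overlap between the motifs. The median glucose change of members with both motifs was 2.05 in knockdown and 2.06 in control myotubes, that of the 9 members with neither was 2.20 in knockdown and 2.11 in control myotubes, and that of the 7 with NF-Y alone was 1.50 in knockdown and 1.92 in control myotubes. The 4 members with the homology element alone (Anln, Cep55, Iqgap3 and Ndc80) had medians of 2.13 in knockdown and 2.65 in control myotubes. These are letter matches and not measured binding.

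**Figure D2:**
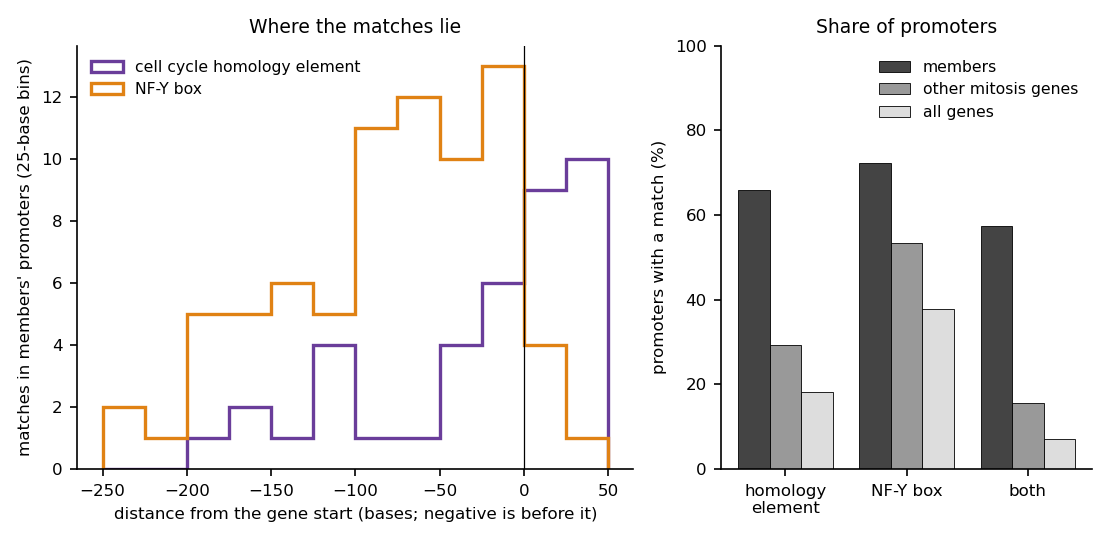
Motif matches in the promoters of the 47 members against distance from the gene start in bases, with the share of promoters holding each motif in members, other mitosis genes and all promoters. Homology elements of the members cluster at the start. Most NF-Y boxes lie before it, as do 250 of the 300 bases read. A homology element is held by 66.0% of members against 18.1% of all promoters.

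Among the CDK1 engine, all 5 measured members rose in both kinds of myotube: Cdk1, the kinase itself, the cyclins Ccna2 and Ccnb2, and the phosphatases Cdc25b and Cdc25c, which remove the inhibitory phosphates of CDK1. Their median change was 1.93 in knockdown and 2.06 in control myotubes. Cdk1 read log2 6.69 and 6.23 in knockdown myotubes at 10 mM and 4.80 and 4.26 at 1 mM, against 6.57 and 6.23 in controls at 10 mM and 4.62 and 4.06 at 1 mM. The 10 mM arrays were well above the 1 mM arrays, and knockdown and control arrays of the same glucose level overlapped. Cdk1 rose by 1.93 ± 0.27 (SE) in knockdown myotubes (3.80-fold, adjusted p = 0.00241) and by 2.06 ± 0.27 in controls (4.17-fold, adjusted p = 0.00215). Ccna2, the cyclin of S phase and early mitosis, read 8.38 and 7.93 in knockdown myotubes at 10 mM and 5.99 and 5.65 at 1 mM, against 8.41 and 7.94 in controls at 10 mM and 5.68 and 5.56 at 1 mM. Its knockdown and control arrays overlapped at each glucose level. It rose 5.06-fold in knockdown myotubes (adjusted p = 0.000552) and 5.86-fold in controls (adjusted p = 0.000478). Cdc25c read 4.38 and 4.42 in knockdown myotubes at 10 mM and 2.96 and 3.03 at 1 mM, against 4.86 and 4.76 in controls at 10 mM and 3.16 and 3.06 at 1 mM. All 4 of its knockdown arrays lay below the control arrays of the same glucose level, and it rose with glucose 2.64-fold in knockdown myotubes (adjusted p = 0.000374) and 3.26-fold in controls (adjusted p = 0.000206). Cdc25b had the smallest change of the group in each kind of myotube, 0.62 ± 0.16 in knockdown and 1.12 ± 0.16 in controls, and its call in knockdown myotubes was lost without either array at 1 mM or without replicate 1 at 10 mM. Of the cyclin B pair, only Ccnb2 was measured.

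The mitotic kinases Plk1, Plk4, Aurka and Melk rose in both kinds of myotube, with medians of 2.21 in knockdown and 2.16 in control myotubes. The call of Aurka in controls was lost in a fit without 1 array. PLK1 acts at centrosomes, kinetochores and the midzone, PLK4 starts centriole duplication, and Aurora A builds spindle poles. Plk1 read 6.87 and 6.32 in knockdown myotubes at 10 mM and 4.43 and 3.90 at 1 mM, against 6.82 and 6.53 in controls at 10 mM and 3.66 and 3.67 at 1 mM. At 10 mM the knockdown and control arrays overlapped, and at 1 mM both knockdown arrays were above the controls. Plk1 rose 5.41-fold in knockdown myotubes (2.44 ± 0.24, adjusted p = 0.000592) and 8.05-fold in controls (3.01 ± 0.24, adjusted p = 0.000307). Plk4 had the smallest change of the kinases, 0.89 ± 0.23 in knockdown (adjusted p = 0.028) and 0.78 ± 0.23 in control myotubes (adjusted p = 0.0451). Its call in knockdown myotubes was lost with quantile normalization and without replicate 2 at 1 mM or either knockdown array at 10 mM. In controls it was lost with no filter, centring and quantile normalization, and without any of 5 arrays: both control arrays at 1 mM, control replicate 1 at 10 mM and both knockdown arrays at 10 mM.

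The chromosomal passenger complex, which corrects wrong kinetochore attachments and acts again at the midzone, rose as a whole. Its kinase Aurkb, its scaffold Incenp, and Birc5 (survivin) and Cdca8 (borealin) were all called, with medians of 1.98 in knockdown and 1.92 in control myotubes. Cdca8 had uneven replicates in controls at 10 mM, at 5.98 and 4.74. Its calls in both kinds of myotube, and that of Incenp in controls, were lost in some fits without 1 array. Aurkb read 6.30 and 5.94 in knockdown myotubes at 10 mM and 3.65 and 3.17 at 1 mM, against 6.65 and 6.38 in controls at 10 mM and 4.06 and 4.08 at 1 mM. The knockdown arrays were the lower ones at each glucose level, without overlap. With glucose Aurkb rose 6.54-fold in knockdown myotubes (2.71 ± 0.20, adjusted p = 0.000237) and 5.44-fold in controls (2.44 ± 0.20, adjusted p = 0.000376).

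Centromere and inner kinetochore genes had a median change of 1.07 in knockdown and 1.83 in control myotubes. Here 5 of 7 were called higher in knockdown myotubes and 7 of 7 in controls. Some fits without 1 array lost the calls of Cenpn in both kinds of myotube, Cenph and Cenpi in knockdown and Cenpm in control myotubes. CENP-A (Cenpa) is the histone H3 variant that marks the centromere, and CENP-H, -I, -K, -L, -M and -N belong to the network built on it. Cenpa read 5.72 and 4.97 in knockdown myotubes at 10 mM and 4.28 and 4.37 at 1 mM, against 5.79 and 5.74 in controls at 10 mM and 4.05 and 3.56 at 1 mM. Its knockdown arrays at 10 mM were its most uneven replicates, and the 10 mM arrays were above the 1 mM arrays in both. Cenpa rose 2.03-fold in knockdown myotubes (1.02 ± 0.26, adjusted p = 0.0268) and 3.89-fold in controls (1.96 ± 0.26, adjusted p = 0.00209). The call in knockdown myotubes was lost with quantile normalization (adjusted p = 0.0669) and without either array at 1 mM (adjusted p = 0.102 and 0.0802) or replicate 1 at 10 mM (0.65, adjusted p = 0.123). Cenpk read 3.68 and 3.75 in knockdown myotubes at 10 mM and 2.15 and 2.28 at 1 mM, against 3.61 and 3.55 in controls at 10 mM and 2.07 and 2.29 at 1 mM. It was dim in 1 mM glucose in both, where knockdown and control arrays overlapped, and rose 2.83-fold in knockdown myotubes (adjusted p = 0.000423) and 2.63-fold in controls (adjusted p = 0.000625). Cenpl and Cenpm, whose values are given because they were the members called in 1 arm alone, were picked after their values were seen. Cenpl was not called in knockdown myotubes, at 0.50 ± 0.23 (adjusted p = 0.155), and rose by 1.46 ± 0.23 in controls (adjusted p = 0.00399). Cenpm was not called in knockdown myotubes, at 1.07 ± 0.39 (adjusted p = 0.0896), and rose by 1.97 ± 0.39 in controls (adjusted p = 0.0103).

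The outer kinetochore binds microtubules, and its 6 members rose in both kinds of myotube, with medians of 2.16 in knockdown and 2.28 in controls. They were the 4 subunits of the NDC80 complex (Ndc80, Nuf2, Spc24 and Spc25), the motor Cenpe, and Cenpf, a large coiled-coil protein of the outer kinetochore. Cenpf read 6.73 and 6.25 in knockdown myotubes at 10 mM and 3.52 and 3.75 at 1 mM, against 6.93 and 6.91 in controls at 10 mM and 3.48 and 3.70 at 1 mM. Its knockdown arrays were below the controls at 10 mM and overlapped them at 1 mM. Cenpf had the largest called change of the 55 members in knockdown myotubes, 2.85 ± 0.19 (7.22-fold, adjusted p = 0.000167), and rose by 3.33 ± 0.19 in controls (10.1-fold, adjusted p = 0.000113). Ndc80 read 7.17 and 7.23 in knockdown myotubes at 10 mM and 5.15 and 4.99 at 1 mM, against 7.70 and 7.22 in controls at 10 mM and 4.65 and 4.79 at 1 mM. Knockdown arrays were above the controls at 1 mM and overlapped them at 10 mM. The rise of Ndc80 was 4.38-fold in knockdown myotubes (adjusted p = 0.00033) and 6.70-fold in controls (adjusted p = 0.000163).

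Of the 5 spindle checkpoint genes, Bub1, Bub1b (BUBR1), Mad2l1 (MAD2) and Ttk (MPS1) rose in both kinds of myotube and Bub3 did not pass in either. The medians over the 5 were 2.25 in knockdown and 1.85 in control myotubes. The call of Ttk in controls was lost in a fit without 1 array. Bub1 read 6.52 and 6.39 in knockdown myotubes at 10 mM and 4.19 and 3.69 at 1 mM, against 6.73 and 6.63 in controls at 10 mM and 3.42 and 3.88 at 1 mM. Knockdown and control arrays overlapped at 1 mM, while at 10 mM the knockdown arrays were the lower. Bub1 rose 5.72-fold in knockdown myotubes (2.52 ± 0.21, adjusted p = 0.000355) and 8.15-fold in controls (3.03 ± 0.21, adjusted p = 0.000197). Bub1b read 5.48 and 4.91 in knockdown myotubes at 10 mM and 3.15 and 2.74 at 1 mM, against 5.55 and 5.04 in controls at 10 mM and 2.48 and 2.69 at 1 mM. Its knockdown and control arrays overlapped at 10 mM, and at 1 mM the knockdown arrays were the higher. The rise was 4.77-fold in knockdown myotubes (adjusted p = 0.00104) and 6.54-fold in controls (adjusted p = 0.000616). Bub3, the partner that brings BUB1 and BUBR1 to kinetochores, read 9.08 and 8.95 in knockdown myotubes at 10 mM and 8.94 and 8.86 at 1 mM, against 9.07 and 9.11 in controls at 10 mM and 9.03 and 8.92 at 1 mM. All 8 arrays lay close together. The change was 0.12 ± 0.13 in knockdown myotubes (adjusted p = 0.555) and 0.12 ± 0.13 in controls (adjusted p = 0.541), each with a 95% confidence interval of -0.18 to 0.41.

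Anaphase and mitotic exit were represented by Cdc20, the APC/C activator, Ube2c, its ubiquitin-conjugating enzyme, Espl1 (separase) and Pttg1 (securin, the inhibitor of separase). All 4 rose in both kinds of myotube, with medians of 1.27 in knockdown and 1.84 in controls. The calls of Pttg1 were lost in both kinds of myotube with quantile normalization and in some fits without 1 array. Cdc20 read 6.39 and 6.32 in knockdown myotubes at 10 mM and 5.31 and 4.83 at 1 mM, against 7.13 and 6.71 in controls at 10 mM and 5.0 and 5.05 at 1 mM. At 10 mM the knockdown arrays were below the controls, and at 1 mM the groups overlapped. Cdc20 rose 2.43-fold in knockdown myotubes (1.28 ± 0.20, adjusted p = 0.00373) and 3.72-fold in controls (1.90 ± 0.20, adjusted p = 0.000914).

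The spindle group had the highest medians of the 11 roles, 2.37 in knockdown and 2.92 in control myotubes. Its 6 members, Aspm (spindle poles), Tpx2 (activator of Aurora A), Nusap1, Ckap2, Ckap2l and Hmmr (microtubule-associated proteins), all rose in both. Aspm read 5.96 and 5.96 in knockdown myotubes at 10 mM and 3.22 and 3.70 at 1 mM, against 6.41 and 6.35 in controls at 10 mM and 2.96 and 2.70 at 1 mM. Its knockdown arrays lay below the controls at 10 mM and above them at 1 mM. Aspm rose 5.67-fold in knockdown myotubes (2.50 ± 0.18, adjusted p = 0.000215) and 11.7-fold in controls (3.55 ± 0.18, adjusted p = 8e-05), where its change was the largest of the 55. Nusap1, whose printed promoter window holds neither motif, read 5.64 and 4.99 in knockdown myotubes at 10 mM and 2.75 and 2.54 at 1 mM, against 5.42 and 5.42 in controls at 10 mM and 2.51 and 2.28 at 1 mM. The groups overlapped at 10 mM, and at 1 mM the knockdown arrays were above the controls. Nusap1 rose 6.37-fold in knockdown myotubes (adjusted p = 0.000306) and 8.15-fold in controls (adjusted p = 0.00021).

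Midzone and cytokinesis genes rose in both kinds of myotube, 6 of 6, with medians of 2.13 in knockdown and 2.36 in controls. Prc1 bundles midzone microtubules, Ect2 and Racgap1 set the site of the contractile ring through RhoA, Anln scaffolds the ring, Cep55 brings the abscission machinery and Iqgap3 is an IQ-domain scaffold of the cortex. Iqgap3 read 4.82 and 4.94 in knockdown myotubes at 10 mM and 3.51 and 3.50 at 1 mM, against 5.72 and 5.72 in controls at 10 mM and 2.92 and 2.90 at 1 mM. Knockdown arrays were below controls at 10 mM and above them at 1 mM, without overlap. Iqgap3 rose 2.60-fold in knockdown myotubes (1.38 ± 0.12, adjusted p = 0.000372) and 7.0-fold in controls (2.81 ± 0.12, adjusted p = 4.53e-05, the smallest of the 55 members in controls). Cep55 read 4.86 and 5.22 in knockdown myotubes at 10 mM and 2.97 and 2.85 at 1 mM, against 5.60 and 5.34 in controls at 10 mM and 2.91 and 2.92 at 1 mM. Its knockdown arrays were below the controls at 10 mM and overlapped them at 1 mM. The rise was 4.39-fold in knockdown myotubes (adjusted p = 0.000251) and 5.89-fold in controls (adjusted p = 0.000154).

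Condensin and chromosome structure was represented by the core ATPases Smc2 and Smc4, the condensin I subunits Ncapd2 and Ncaph, topoisomerase II alpha (Top2a), which untangles sister DNA, and Mki67, the Ki-67 protein that coats mitotic chromosomes. All 6 rose in both kinds of myotube, with medians of 1.98 in knockdown and 1.84 in controls. The call of Ncapd2 in controls was lost in some fits without 1 array. Ncaph read 6.46 and 5.96 in knockdown myotubes at 10 mM and 4.09 and 3.94 at 1 mM, against 6.66 and 6.31 in controls at 10 mM and 4.25 and 4.09 at 1 mM. Knockdown and control arrays overlapped at 10 mM, and the rise was 4.58-fold in knockdown myotubes (adjusted p = 0.000484) and 4.99-fold in controls (adjusted p = 0.000467). Top2a read 8.18 and 7.82 in knockdown myotubes at 10 mM and 5.56 and 5.38 at 1 mM, against 8.31 and 8.14 in controls at 10 mM and 4.95 and 4.99 at 1 mM. Both knockdown arrays stood above the controls at 1 mM, and the rise was 5.76-fold in knockdown myotubes (2.53 ± 0.16, adjusted p = 0.000154) and 9.53-fold in controls (3.25 ± 0.16, adjusted p = 7.79e-05). Mki67 read 8.19 and 7.78 in knockdown myotubes at 10 mM and 5.72 and 4.83 at 1 mM, against 8.38 and 8.14 in controls at 10 mM and 5.77 and 5.71 at 1 mM. Knockdown and control arrays overlapped at each glucose level. Mki67 rose 6.56-fold in knockdown myotubes (2.71 ± 0.29, adjusted p = 0.00075) and 5.73-fold in controls (2.52 ± 0.29, adjusted p = 0.00116), and its 1 mM knockdown arrays were the most uneven replicates.

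The transcription factors had the smallest medians of the roles, 0.82 in knockdown and 0.49 in control myotubes, and only Foxm1 was called. Foxm1 read 5.61 and 5.26 in knockdown myotubes at 10 mM and 4.62 and 3.90 at 1 mM, against 5.58 and 5.87 in controls at 10 mM and 4.72 and 4.74 at 1 mM. Knockdown and control arrays overlapped at 10 mM, and at 1 mM the knockdown arrays were the lower. It rose 2.25-fold in knockdown myotubes (1.17 ± 0.25, adjusted p = 0.0131) and 2.00-fold in controls (1.00 ± 0.25, adjusted p = 0.0247). The call in controls was lost without any single control array, at adjusted p of 0.0551 to 0.129, and that in knockdown myotubes without replicate 1 at 10 mM (adjusted p = 0.0846). Mybl2 read 3.79 and 4.19 in knockdown myotubes at 10 mM and 3.49 and 3.53 at 1 mM, against 3.45 and 3.37 in controls at 10 mM and 3.51 and 3.34 at 1 mM. The knockdown arrays at 10 mM were its highest, and the other 6 arrays lay close together. Its change was 0.47 ± 0.16 in knockdown myotubes (adjusted p = 0.0739) and -0.02 ± 0.16 in controls (adjusted p = 0.96, 95% confidence interval -0.40 to 0.37).

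**Figure D3:**
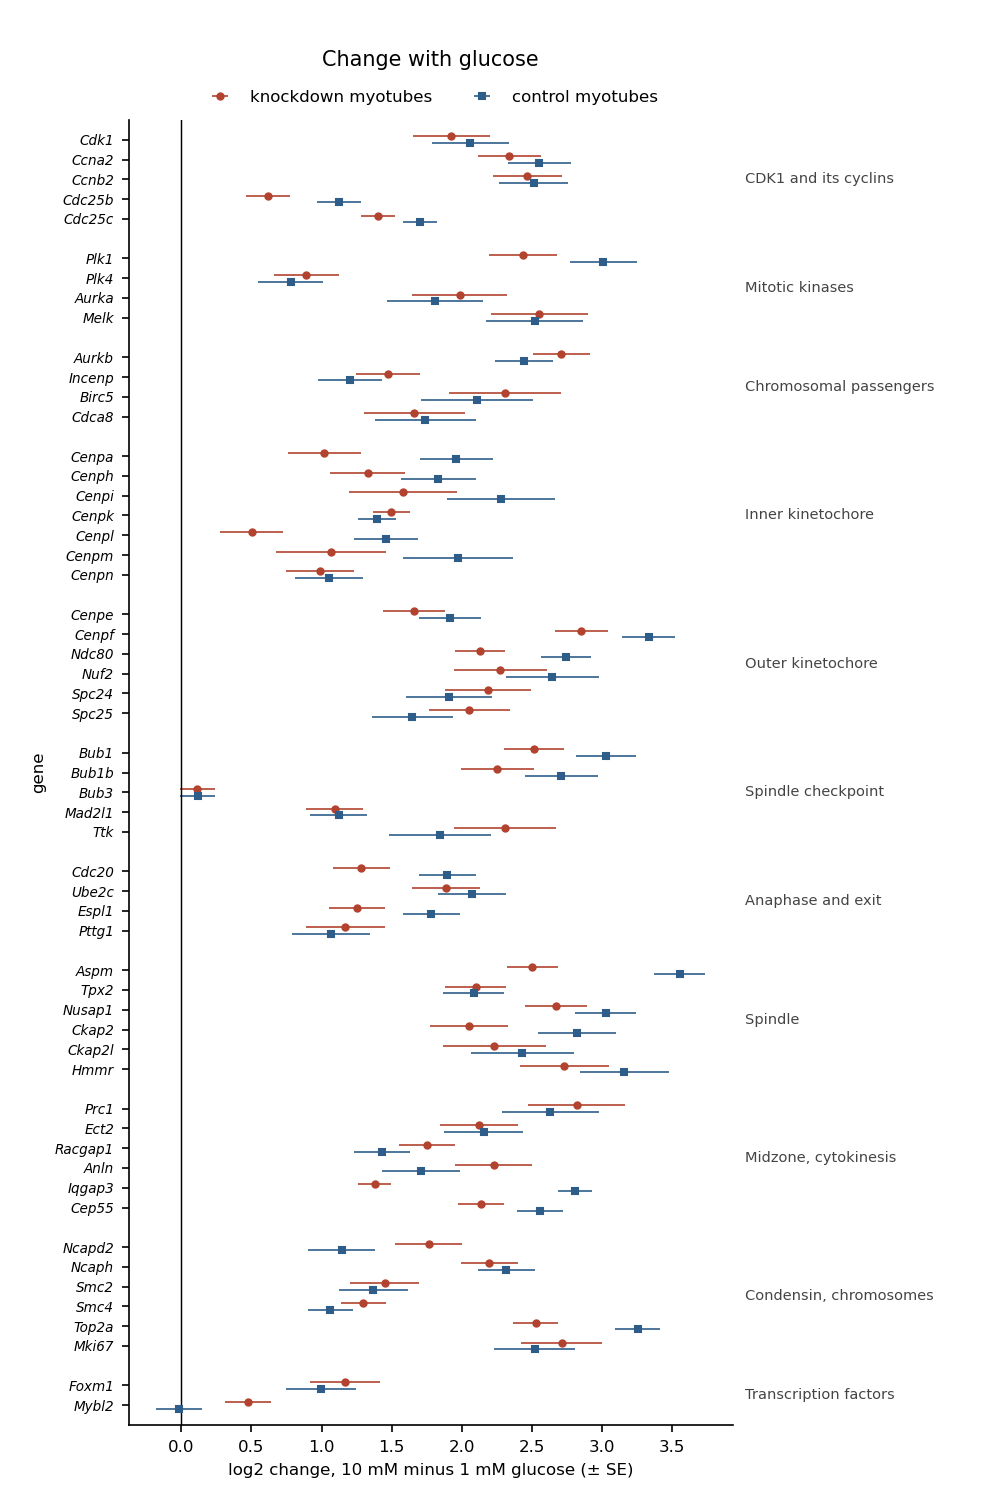
Log2 change, 10 mM minus 1 mM glucose, for each of the 55 members by role, with standard errors from limma, in knockdown (red circles) and control myotubes (blue squares). Bub3 in both and Mybl2 in controls lie at or near 0, and the farthest points are Cenpf at 2.85 in knockdown and Aspm at 3.55 in control myotubes.

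Other genes of mitosis, from lists that hold none of the members, were split. Of 62 tested, 24 rose and 2 fell in knockdown myotubes, and 21 rose and 1 fell in controls, with medians of 0.36 in knockdown and 0.33 in control myotubes. Over all tested genes 14.5% rose and 10.6% fell in knockdown myotubes, and 13.2% rose and 12.1% fell in controls. Of 20 further kinetochore genes, 8 rose in each kind of myotube, among them Ska3 (2.63 in knockdown and 2.20 in controls), Kntc1 (1.80 in knockdown and 1.98 in controls) and Ska2 (0.93 in knockdown and 1.04 in controls), and Zwint fell in knockdown myotubes. Mitotic entry control gave 6 higher of 9 in knockdown myotubes and 7 higher with 1 lower, Cdc25a, in controls. There Mastl, the Greatwall kinase, rose by 2.35 in knockdown and 2.11 in control myotubes, and Wee1, which puts the inhibitory phosphate on CDK1, rose by 1.35 in knockdown and 1.18 in controls.

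The APC/C subunits themselves had medians of only 0.26 in knockdown and 0.21 in control myotubes, with 4 higher and 1 lower of 15 in knockdown myotubes and 1 higher, Cdc16, in controls. For this list and those that follow, the share of all tested genes that rose was 14.5% in knockdown and 13.2% in control myotubes. Cohesin gave 5 of 15 higher in knockdown myotubes and 4 in controls, with medians of 0.35 in knockdown and 0.11 in control myotubes, led by Esco2, the acetyltransferase that sets cohesion (2.12 in knockdown and 2.43 in controls), and Cdca5, sororin (1.17 in knockdown and 1.59 in controls). Of the 3 condensin II subunits only Ncapg2 was called, at 0.72 in knockdown and 0.98 in control myotubes. The 11 tested DREAM and MuvB subunits had medians of 0.02 in knockdown and -0.10 in controls. In each kind of myotube 2 were called higher and 1 lower. The largest rise was that of Lin9 (0.98 in knockdown and 0.80 in controls), and Lin52 was lower (-0.76 in knockdown and -0.48 in controls).

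Markers of differentiation and of other cells moved in the same comparisons. All 15 muscle genes rose with glucose in knockdown myotubes and 10 of 15 in controls, with medians of 1.11 in knockdown and 0.70 in control myotubes. The share of all tested genes that rose was 14.5% in knockdown and 13.2% in control myotubes. Of 6 tested fibroblast markers, 5 rose in knockdown myotubes and 6 in controls. The mean of the 8 listed fibroblast markers was 6.88 and 6.95 in knockdown myotubes at 10 mM, 5.86 and 5.99 in knockdown myotubes at 1 mM, 6.89 and 7.05 in controls at 10 mM and 5.93 and 6.10 in controls at 1 mM. Of 11 tested markers of undifferentiated myoblasts, 4 rose and 2 fell in knockdown myotubes and 2 rose and 2 fell in controls. Their changes ran from -2.12 to 0.78 in knockdown and from -1.88 to 1.24 in control myotubes. The mean of the 12 listed lay between 6.02 and 6.24 on all 8 arrays, but a mean does not show changes in opposite directions. The labels name a single cell line, and these are levels of marker transcripts, not counts of cells. The relation of these markers to the change of the mitotic genes was not tested.

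Replicates differed in a direction that most members shared, except in controls at 1 mM, where the share was near that of all tested genes. Among the 55 members, replicate 1 was above replicate 2 for 47 in knockdown myotubes at 10 mM (median difference 0.31), for 39 in knockdown myotubes at 1 mM (0.25), for 49 in controls at 10 mM (0.34) and for 32 in controls at 1 mM (0.03). Over all tested genes the share with replicate 1 the higher was 47.6% in knockdown myotubes at 10 mM, 48.3% in knockdown myotubes at 1 mM, 41.7% in controls at 10 mM and 52.1% in controls at 1 mM. The mean of the 55 was 6.25 and 5.95 in knockdown myotubes at 10 mM, 4.39 and 4.17 in knockdown myotubes at 1 mM, 6.44 and 6.10 in controls at 10 mM and 4.28 and 4.24 in controls at 1 mM. The gap between glucose levels was thus wider than any gap between replicates.

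Baf60c knockdown was set against control at each glucose level. At 1 mM both knockdown arrays lay above both control arrays for 13 of the 55 members, against 20.2% of tested genes. They lay below for 8, against 26.9%. At 10 mM they lay above for 3, against 24.1%, and below for 12, against 21.6%. The separations given above for single members are among these. At 10 mM, 1 member was lower in knockdown myotubes and 0 were higher at an adjusted p under 0.05, against 0.691% and 0.428% of tested genes, and 6 of 55 had an unadjusted p under 0.05, against 13.6%. The member was Iqgap3, at -0.83 ± 0.12 (adjusted p = 0.0327, 95% confidence interval -1.11 to -0.55), whose arrays are given above and did not overlap. Its call was lost without any 1 of the 8 arrays, at adjusted p of up to 0.217. At 1 mM limma called 0 members, against 1.49% of tested genes, with 6 at an unadjusted p under 0.05, against 15.9%. The smallest unadjusted p-values at 1 mM were those of Iqgap3 (0.60 ± 0.12, adjusted p = 0.0684), Aspm (0.63 ± 0.18, adjusted p = 0.161) and Aurkb (-0.66 ± 0.20, adjusted p = 0.188). At 10 mM Mybl2 (0.58 ± 0.16, adjusted p = 0.177) and Cdc25c (-0.42 ± 0.12, adjusted p = 0.191) followed Iqgap3.

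The median knockdown effect of the members was -0.22 at 10 mM and 0.03 at 1 mM, against 0.01 at 10 mM and -0.03 at 1 mM over all tested genes. At 10 mM, 43 of the 55 lay below 0, but leaving out 1 array at that glucose level put the median at 0.035 without control replicate 1, -0.42 without control replicate 2, -0.35 without knockdown replicate 1 and -0.011 without knockdown replicate 2. The median at 1 mM turned to -0.11 without knockdown replicate 1 and to -0.011 without control replicate 1 at that glucose level, and was 0.070 without knockdown replicate 2. The intervals were wide: the 95% confidence interval stayed within 1 log2 unit of 0 for 38 of 55 members at 10 mM and for 39 at 1 mM. Averaged over glucose, limma called 0 members, against 4.31% of tested genes, with 4 at an unadjusted p under 0.05, against 19.7%. The averaged effects ran from -0.53 to 0.33 and 54 of the 55 intervals stayed within 1 log2 unit, with Aurkb at -0.53 ± 0.14 (adjusted p = 0.1004). In the same comparison 14 of the 15 muscle genes were lower in knockdown myotubes, against 2.71% of tested genes, with a median difference of -1.02 over the list.

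**Figure D4:**
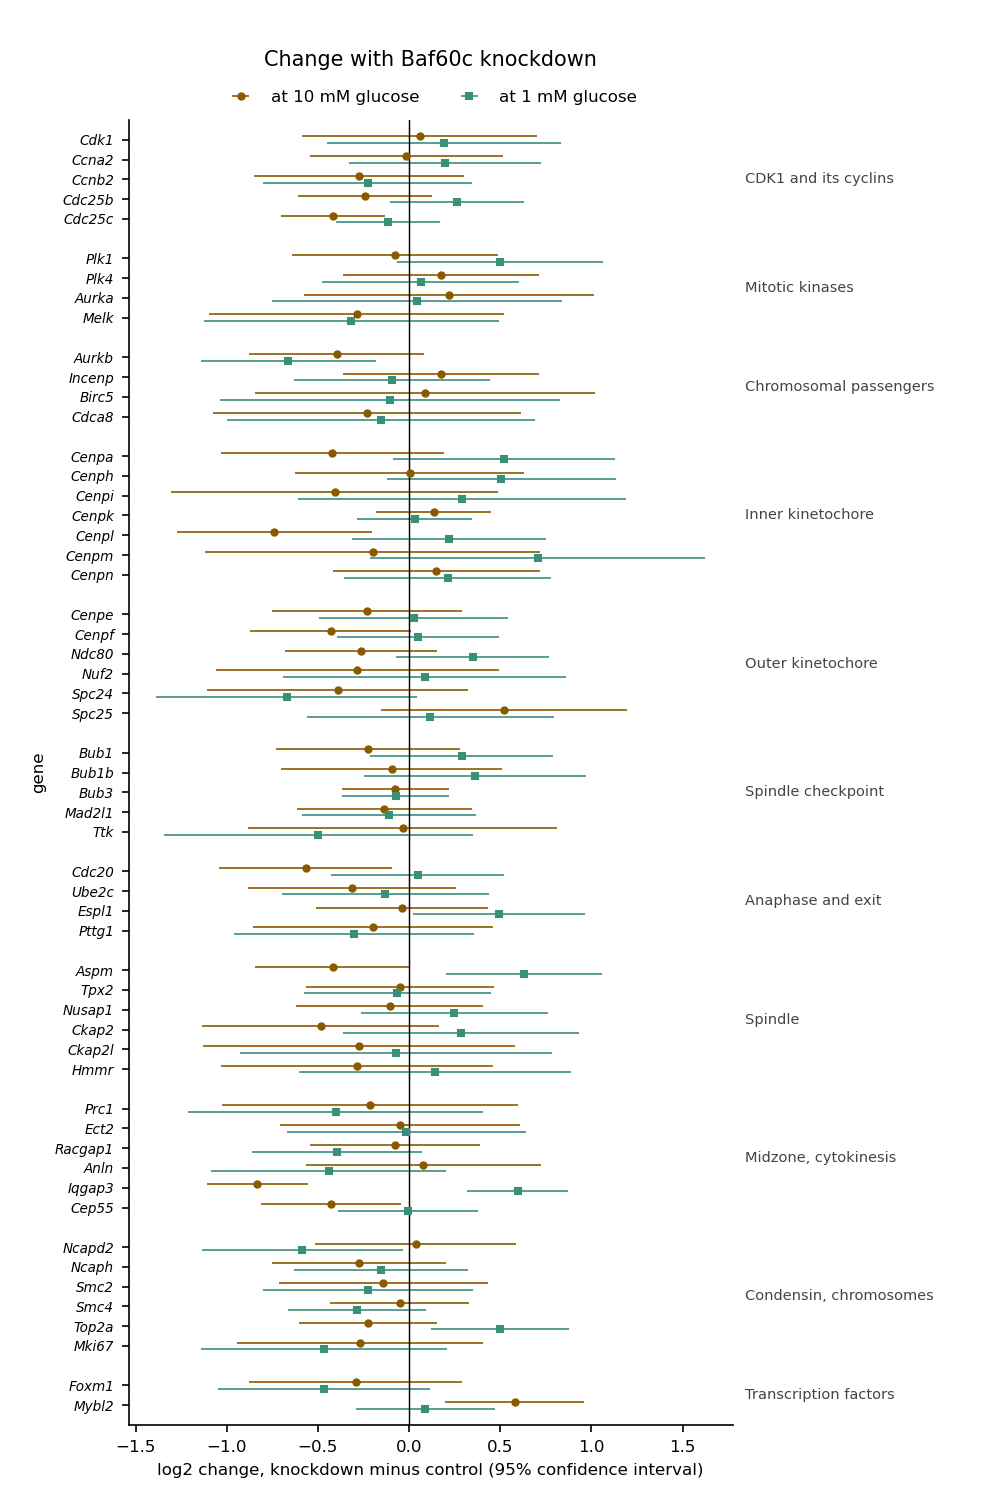
Log2 difference of knockdown minus control myotubes for each of the 55 members at 10 mM and at 1 mM glucose, with 95% confidence intervals. Most intervals cross 0; Iqgap3 at 10 mM, at -0.83, is the only member called.

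The glucose response was compared between the arms by the interaction, the change in knockdown minus that in control myotubes. No member was called by limma (0 of 55, and 0% of tested genes), with 6 members at an unadjusted p under 0.05, against 7.88%. The median interaction of the members was -0.12, with 21 above 0 and 34 below. Leaving out 1 array moved this median between -0.35, without control replicate 2 at 10 mM, and 0.042, without control replicate 1 at 10 mM, and it was also above 0 without knockdown replicate 2 at 10 mM (0.010). Iqgap3 had -1.43 ± 0.17 (adjusted p = 0.235), Aspm -1.05 ± 0.26 (adjusted p = 0.417) and Top2a -0.73 ± 0.23 (adjusted p = 0.554). The inner kinetochore had the lowest median of the roles, -0.70, and none of its members passed. The interval stayed within 1 log2 unit of 0 for 19 of the 55, so differences of up to that size in the response of most members were not resolved with 2 arrays a group. Across the 55 members the changes in both arms, which share no arrays, correlated at r = 0.82 and rho = 0.80, and across all tested genes at r = 0.83. These correlations are across genes, which are not independent replicates.

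**Figure D5:**
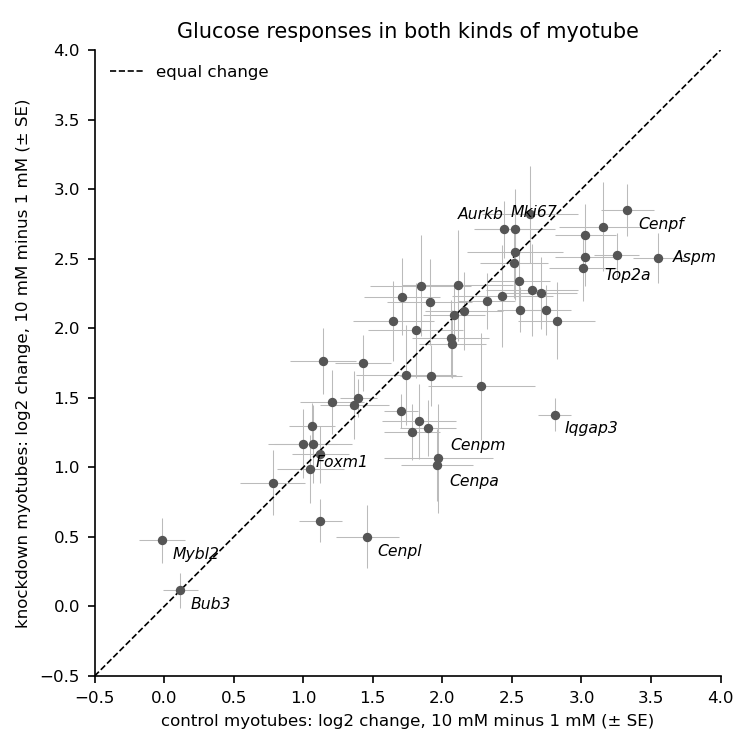
Each point is 1 of the 55 members, with its log2 change with glucose in control myotubes on the horizontal axis and in knockdown myotubes on the vertical axis, ± SE. Points lie around the dashed line of equal change, with 34 below it; Iqgap3 lies farthest below, at 1.38 in knockdown and 2.81 in control myotubes.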

How the data were processed

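RNA of 8 cultures was hybridised to Affymetrix Mouse Gene ST arrays. The deposited table holds log2 expression values, made by the authors with affy and its RMA method, per the submitters' processing notes; tool versions and the genome build of the probe design are not given in the sources used here. RMA gives all arrays a common distribution and shrinks differences of dim probe sets, so a fold change of a dim gene may be understated and a change of all transcripts would not show. No depth applies to arrays; their number limits the precision.

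Of 41345 probe sets, 23521 had exactly 1 gene, 1814 several and 16010 none in the platform annotation. For genes with several probe sets (1082 of 22180), the one with the highest mean over 8 arrays was used. Genes with a mean below the 40th percentile, log2 2.30, were left out, leaving 13308. IDs of 55 members matched GRCm38.p6 RefSeq, and 0 symbols changed. The values were not normalized again.

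Contrasts were tested two-sided in R 4.3.3 with the package limma 3.58.1 (functions lmFit and eBayes, 1 mean per group over 8 arrays, 4 residual and 3.36 prior degrees of freedom), adjusted by Benjamini-Hochberg over the 13308 genes and called at an adjusted p under 0.05. Errors are SEs of this fit, with n = 2 arrays a group. The series design describes the replicates as independent, and p-values measure only the spread between these samples. The procedure was tested on simulated data. Members and lists were chosen with earlier results of these data known. Values on every array were given for the 1 or 2 members of each role with the smallest p in the control glucose contrast, for members called in neither glucose contrast, for the 3 with the smallest p in each other contrast, and for Cdk1, Aurkb, Cenpa, Mki67 and Foxm1. Alternatives were no filter, a filter at the 60th percentile, centring, quantile normalization, the mean of a gene's probe sets, trend and robust eBayes, a replicate block and leaving out each array. Replicate numbers were not taken to pair the samples.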

Additional observations from a re-analysis of the deposited data

Results flagged for a closer look

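Ncapg, the condensin I subunit that the rule could not place, was on the array through a probe set shared with Lcorl, which entered no comparison above. It read 5.56 and 5.57 in knockdown myotubes at 10 mM and 3.58 and 3.64 at 1 mM, against 5.95 and 5.74 in controls at 10 mM and 3.48 and 3.35 at 1 mM. Its change with glucose was 1.95 in knockdown myotubes (limma adjusted p = 0.000175) and 2.43 ± 0.13 in controls (adjusted p = 0.0001036), and the signals of Ncapg and Lcorl cannot be separated. A probe set shared by Oip5 and Nusap1 changed by 1.18 in knockdown myotubes (adjusted p = 0.019) and 1.36 ± 0.28 in controls (adjusted p = 0.0111), the same direction as Nusap1's own probe set. The 2 probe sets shared by Top2a and Taf1d differed from Top2a's own probe set. They changed by 0.45 (adjusted p = 0.139) and 0.47 (adjusted p = 0.0396) in knockdown myotubes and by 0.08 (adjusted p = 0.802) and 0.22 (adjusted p = 0.280) in controls, where Top2a's own probe set changed by 2.53 in knockdown and 3.25 in control myotubes. The Ncapg and Nusap1 probe sets were singled out because they carry a signal in probe sets that the comparisons do not use.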

How the results depend on the processing

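Of 586 values of named members called in the glucose comparisons, taken over all alternatives, 577 kept their call, 9 lost it and 0 changed sign. Most named members were picked for a small p in these data, which favours calls that hold, so these counts do not speak for all 55. The filter at the 60th percentile kept 34 members, of which 33 were called in knockdown and 33 in control myotubes. Named members that it dropped, Iqgap3 among them, gave no values under that filter, so the 586 do not cover them there. Leaving out 1 array gave 43 to 51 called members in knockdown myotubes (fewest without replicate 1 at 10 mM) and 46 to 53 in controls; no other setting moved these counts by over 1.5 times. Cenpa in knockdown myotubes was lost with quantile normalization (adjusted p = 0.0669) and without any of 3 arrays (0.0802 to 0.123). Mybl2 in controls changed sign without being called, to 0.015 with the mean of its probe sets, and over the leave-one-out fits it ran from -0.10 to 0.070, above 0 without control replicate 1 at 1 mM or control replicate 2 at 10 mM. The count of members called at 10 mM for knockdown was 0 with no filter, trend and robust eBayes, and the replicate block. It was also 0 with the 60th percentile filter, but that filter left Iqgap3 untested, so its call could not be checked there. The leave-one-out fits lost the call of Iqgap3, as given above. At 1 mM the count was 1 with centring and 1 with quantile normalization (Iqgap3, adjusted p = 0.0479 and 0.0414), and averaged over glucose it was 1 with the 60th percentile filter (Aurkb, -0.53, adjusted p = 0.0377). The interaction count was 0 in all settings, with 4 to 11 members at an unadjusted p under 0.05. The causes were not tested beyond the number of genes and arrays each setting leaves. Over all tested genes, calls were 3342 in the glucose comparison of knockdown myotubes (1903 to 4010 over settings), 3372 in that of controls (2046 to 4095), 149 for knockdown at 10 mM (0 to 467), 198 at 1 mM (30 to 598), 573 on average (210 to 1120) and 0 for the interaction (0 to 1). Deviations of same-numbered replicates correlated at r of -0.04 to 0.11 over all tested genes and -0.22 to 0.17 over the members, not above 0.1 in every pair of groups. A correlation across genes does not register a shift that all members share. It therefore could not decide whether same-numbered replicates belong together. The numbers were not taken to pair the samples. The replicate block gave 51 called members in knockdown and 53 in control myotubes. With 2 arrays a group, effects of less than about 1 log2 unit were often not resolved, and probe sets below log2 3 carry less signal over background.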
